A study of Mus musculus with 2 samples.

Results

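The 9 genes described here are the vascular endothelial growth factor (VEGF) ligands Vegfa, Vegfb, Vegfc and Pgf, the receptors Flt1, Kdr and Flt4, and the co-receptors Nrp1 and Nrp2, taken by gene symbol from the 32285 genes of the deposited matrices, in which all 9 were found. To examine how lung endothelial cells (ECs) respond to the arrival of melanoma cells, single-cell RNA sequencing compared 2 libraries of mouse lung. In the control, wild-type C57BL/6 mice received phosphate-buffered saline (PBS) through the tail vein, and in the other group they received 400000 B16-F10 cells, a skin melanoma line grown in culture and labelled with a green tracker dye, in 100 µl. Lungs were collected 6 h later, digested and sorted for cells with the endothelial surface protein Pecam1 and without the leukocyte protein Ptprc, and melanoma cells carrying the dye were sorted from injected lungs into the same library. All mice were wild type, no transgene was used, and each treatment was pooled into 1 library (2 mice per treatment by the labels, a number that differs from the paper). Mouse age is not given in the labels.

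VEGF ligands are secreted dimers that bind tyrosine kinase receptors on endothelium. VEGF-A, encoded by Vegfa, signals for growth, survival and permeability mainly through VEGFR2, the product of Kdr, whereas VEGFR1, the product of Flt1, binds VEGF-A, VEGF-B and placental growth factor tightly, is also made as a soluble form and mostly limits the ligand that reaches VEGFR2. VEGF-C acts on VEGFR3, the product of Flt4, the receptor of lymphatic vessels, and the neuropilins Nrp1 and Nrp2 bind both VEGFs and class 3 semaphorins and pair with these receptors. In the lung, alveolar epithelium is a known source of VEGF-A, and aerocytes (aCap), the large capillary ECs that face the air sacs, are known for high Kdr, in contrast to general capillary ECs (gCap).

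The control library held 85794655 unique molecular identifiers (UMIs, each marking 1 captured RNA molecule) and the B16-F10 library 104978816. After filtering, 7830 and 7767 cells remained, at a median of 7500 and 8557 UMIs, and 18 cell barcodes were kept in both libraries. Of these cells, 7081 and 6346 were ECs, among them 4318 and 3904 gCap-like, 1448 and 968 aCap-like, 193 and 145 artery-like, 286 and 277 vein-like and 58 and 47 lymphatic (LEC-like) ECs in the control and the B16-F10 library. None of the 8 endothelial markers was at 0 in any vessel class. The 8 lymphatic markers were all detected in LEC-like ECs and summed to 29142 and 37823 CPM in LEC-like ECs against at most 12.2 CPM in the other 4 vessel classes. Not every class was so separate. In control, the 8 gCap markers summed to 7936 CPM in gCap-like, 3790 CPM in artery-like and 4533 CPM in vein-like ECs. These marker lists also named the classes. CPM are UMIs of a gene per 1000000 UMIs of the class in a library. Markers of other cells moved between the libraries in gCap-like ECs: the 8 AT2 (surfactant-making epithelial) markers summed to 51.1 and 100.2 CPM, the 8 melanoma markers to 25.4 and 54.0 CPM, and the 6 airway markers to 193 and 99.6 CPM. Mural (vessel wall), fibroblast, macrophage/monocyte and neutrophil markers were higher, at 30.9 and 58.1, 11.9 and 23.3, 17.3 and 30.3, and 2.60 and 8.11 CPM. AT1 (other alveolar epithelial) markers were lower, at 1107 and 942 CPM. Of the vessel markers, those of veins summed to 160 and 207.5 CPM and those of arteries to 192 and 137 CPM. Their part in the results below was not tested beyond the subtraction of free RNA.

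Each group is 1 library, so no test was possible and no p-value is given. A range in parentheses is a 95% interval that covers counting error only, not the spread between mice. Ratios divide CPM of the B16-F10 library by those of the control and are given as log2. A gene was measured in a class with at least 50 UMIs over both libraries, and it was counted as higher or lower where its log2 ratio was at least 0.5 in either direction. The UMIs come from the 3′ end of transcripts, so soluble and membrane-bound forms of a receptor cannot be told apart, and levels are compared between cell classes and not between genes.

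To show the sequence in front of the genes on which the comparison turned, the promoters of Vegfa and Nrp2, which had the higher capillary levels after B16-F10 injection, are set beside those of Flt1 and Kdr, the kinase receptors that bind VEGF-A, whose levels in gCap-like ECs differed little. They are RefSeq sequences of GRCm38.p6, the bases just before the transcription start, outside annotated exons, written 5′ to 3′ on the strand of the gene. Capitals mark GGAA, the core bound by ETS factors such as Erg and Fli1, or its reverse complement TTCC.
Vegfa chr17:46032378-46032627 (minus strand): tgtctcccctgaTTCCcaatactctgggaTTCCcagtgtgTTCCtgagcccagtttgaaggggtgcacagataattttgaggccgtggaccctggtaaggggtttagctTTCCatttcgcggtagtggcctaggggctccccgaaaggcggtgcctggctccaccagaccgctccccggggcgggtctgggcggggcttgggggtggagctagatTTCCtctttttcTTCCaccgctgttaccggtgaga
Nrp2 chr1:62703067-62703284 (plus strand): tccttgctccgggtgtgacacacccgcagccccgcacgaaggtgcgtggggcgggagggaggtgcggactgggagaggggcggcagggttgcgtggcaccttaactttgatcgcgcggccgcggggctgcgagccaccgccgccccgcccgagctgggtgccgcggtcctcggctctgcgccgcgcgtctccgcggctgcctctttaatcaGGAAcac
Flt1 chr5:147726012-147726261 (minus strand): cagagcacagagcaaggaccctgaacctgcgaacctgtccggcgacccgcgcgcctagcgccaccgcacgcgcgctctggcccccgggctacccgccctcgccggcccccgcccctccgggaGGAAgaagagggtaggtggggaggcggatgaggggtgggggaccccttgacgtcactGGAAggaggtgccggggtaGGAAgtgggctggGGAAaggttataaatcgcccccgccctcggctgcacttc
Kdr chr5:75978459-75978705 (minus strand): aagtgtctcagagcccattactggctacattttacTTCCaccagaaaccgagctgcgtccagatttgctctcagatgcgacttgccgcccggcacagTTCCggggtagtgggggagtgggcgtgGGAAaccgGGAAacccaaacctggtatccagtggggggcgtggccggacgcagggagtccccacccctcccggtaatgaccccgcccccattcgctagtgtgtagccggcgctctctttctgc
The printed Vegfa promoter held 6 matches to GGAA on either strand, Flt1 and Kdr 4 each, and Nrp2 1, over 250, 250, 247 and 218 bases. GGAA occurred in 93.4% of 32851 promoters over the 250 bases before the start, with a median of 3 matches, so its presence does not set these genes apart. ACGTG, the core of the hypoxia response element, and AGGTCA, a nuclear receptor site, were searched on both strands and had 0 matches in all 4, against 16.6% and 14.0% of all promoters. Bases farther from the start were not searched, so 0 matches holds for the printed bases alone. A match is a description of the letters only.

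In gCap-like ECs, the most numerous class, Nrp2 was the member with a clear difference: its CPM in the B16-F10 library were 2.95-fold those of the control (2.42 to 3.62). Vegfa was also higher beyond counting error, at a log2 ratio of 0.20 (0.16 to 0.24), whereas Nrp1 and Flt4 were lower, at -0.31 (-0.34 to -0.28) and -0.25 (-0.34 to -0.16). Of the 8 members measured there, 1 (Nrp2) was higher by at least 0.5 and 0 were lower, beside 9.91% and 12.3% of the 13006 genes measured. The median over the 8 was 0.05, and over all genes it was -0.04. In the B16-F10 library Vegfa and Nrp2 were highest, among gCap-like clusters, in the one led by Lalba, with 61 control and 968 B16-F10 cells. For Vegfa a cluster led by Gm20631 was close, at 447 CPM against 452 CPM, with overlapping intervals. Without the Lalba-led cluster, an alternative added after seeing the data, the Vegfa ratio was 0.00, while Nrp2 stayed above the limit at 0.67.

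The sets of the other vessel classes overlapped in part: Nrp2 was higher in gCap-, vein- and LEC-like ECs, and Flt4 in vein- and LEC-like ECs. In aCap-like ECs, Vegfa was higher and no member was lower, 1 of 6 measured, beside 9.45% higher and 11.1% lower of 11106 genes. In artery-like ECs, Vegfc was lower and none was higher, 1 of 6, beside 11.4% lower and 12.9% higher of 7365 genes. In vein-like ECs, Flt4 and Nrp2 were higher, 2 of 8, and none was lower, beside 7.21% higher and 8.10% lower of 9255 genes. In LEC-like ECs, Pgf, Flt4 and Nrp2 were higher, 3 of the 4 measured (the other was Kdr), and none was lower, beside 11.3% higher and 11.2% lower of 3875 genes. The median over the members was -0.02, -0.02, -0.04 and 0.68 in aCap-, artery-, vein- and LEC-like ECs, and over all genes 0.01, 0.02, -0.02 and -0.01. With 4 to 8 members per class, these are descriptions of single genes.

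**Figure D1:**
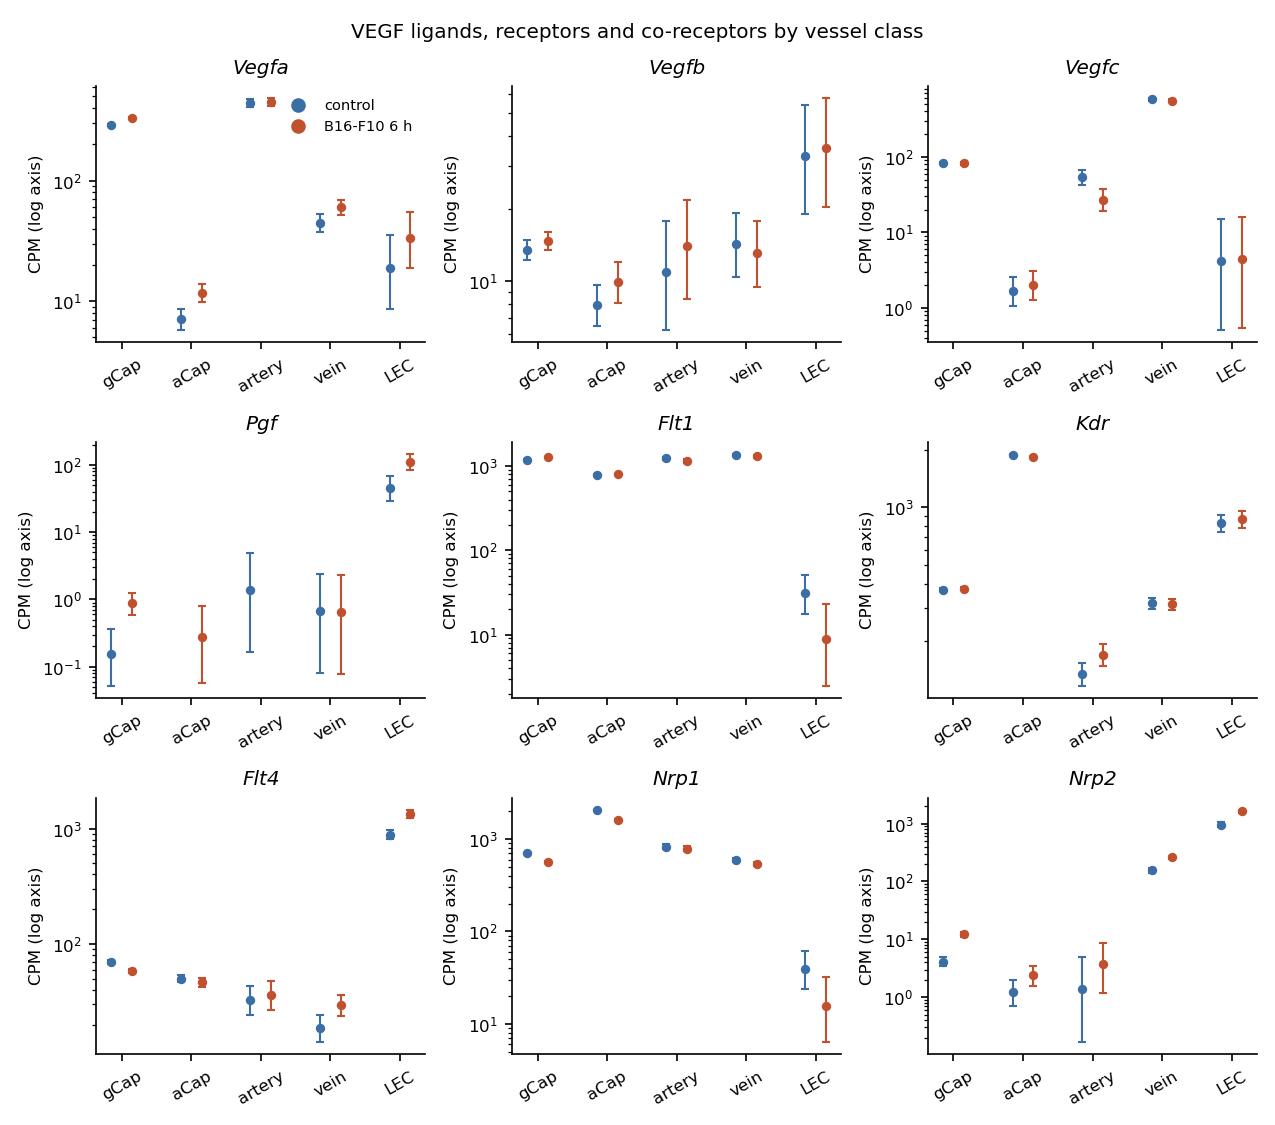
Level of each gene (CPM, log axis, scaled separately in each panel) in the 5 vessel classes of the control (blue) and the B16-F10 library (orange), with bars for the 95% Poisson interval and sums of 0 not drawn. Kdr and Nrp1 were highest in aCap-like ECs, Vegfc in vein-like ECs, and Flt4, Pgf and Nrp2 in LEC-like ECs in both libraries.

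**Figure D2:**
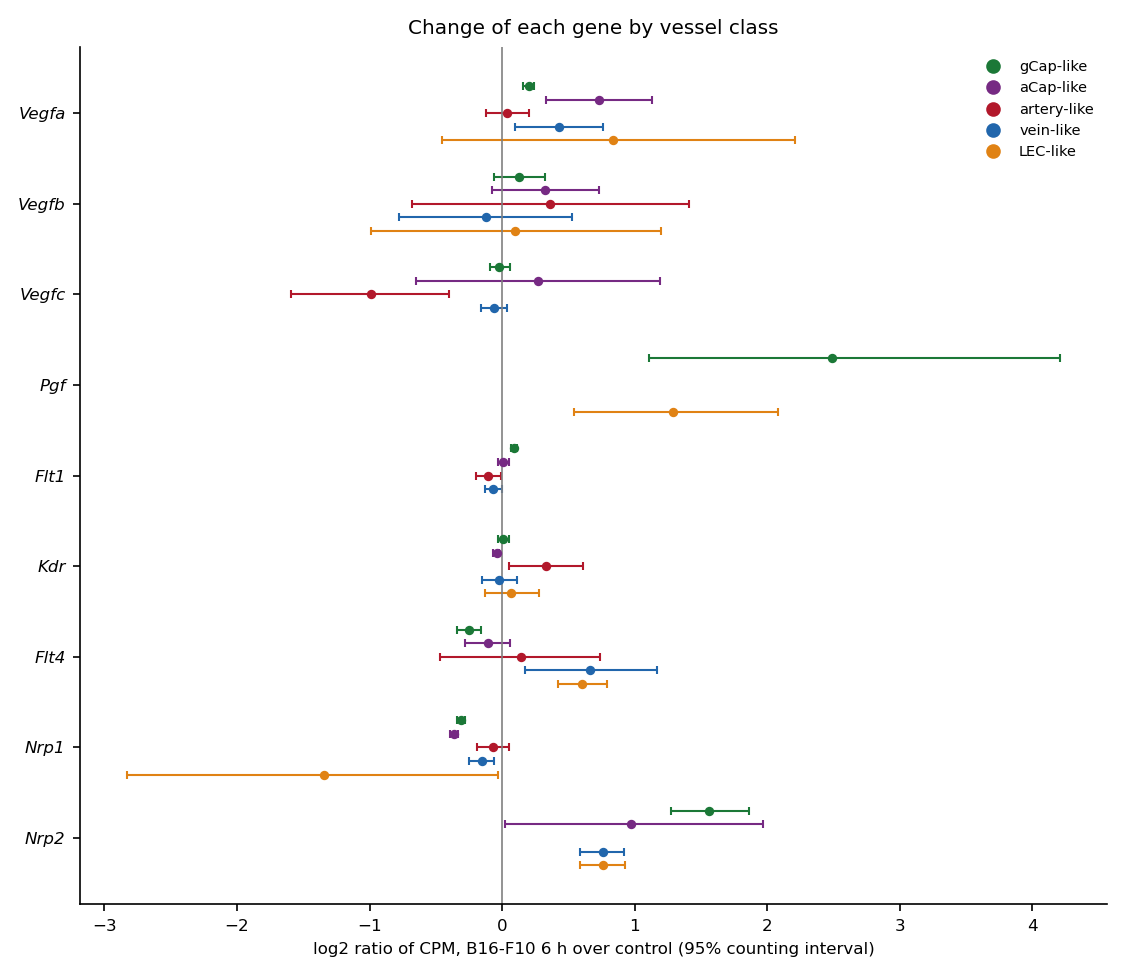
Log2 ratio of CPM, B16-F10 over control, for each gene in each vessel class (colours), with the 95% counting interval; genes with under 20 UMIs over both libraries, or 0 in 1 of them, are not drawn. Nrp2 lay to the right of 0 in the 4 classes drawn, and Nrp1 to the left of 0 in all 5.

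Vegfa (ENSMUSG00000023951, GRCm38 chromosome 17, 46016993 to 46032369, minus strand) encodes the principal angiogenic ligand. Its 9209 control and 11271 B16-F10 UMIs in gCap-like ECs correspond to 289 CPM (283 to 295) and 331 CPM (325 to 337). Its level was highest in artery-like ECs, at 438 and 449.6 CPM, a log2 ratio of 0.04 (-0.12 to 0.20), within counting error. The order artery, gCap, vein, LEC and aCap was the same in both libraries, and the highest level was 61.8-fold the lowest in control and 38.2-fold in B16-F10 lungs. Neighbours in this order overlapped in their intervals only for LEC and aCap in control and for vein and LEC in B16-F10 lungs. The largest ratio beyond counting error was found in the class with the lowest level. In aCap-like ECs Vegfa went from 93 to 128 UMIs, 7.09 and 11.8 CPM, a ratio of 0.73 (0.33 to 1.13). Free RNA would supply 2.65 and 3.28 CPM of that, and with doublets kept the ratio was 0.13. In vein-like ECs the levels were 44.6 and 59.9 CPM, a ratio of 0.43 (0.10 to 0.76). The vein-like ratio was 0.90 with at least 500 genes per cell, and 0.79 with no maximum of genes. In LEC-like ECs, with 9 and 15 UMIs, the difference was within counting error.

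Vegfb (ENSMUSG00000024962, chromosome 19, 6982473 to 6987651, minus strand), whose product binds VEGFR1 alone among the kinase receptors, was low in all 5 vessel classes. It had 13.5 CPM in control and 14.7 CPM in B16-F10 gCap-like ECs (429 and 501 UMIs), a ratio of 0.13 (-0.06 to 0.32). Across the 5 vessel classes it ranged from 7.93 to 33.3 CPM in control and from 9.93 to 35.7 CPM in B16-F10 lungs. LEC-like ECs were highest and aCap-like ECs lowest in both. All neighbours in the order of levels overlapped in their intervals in control, and all but LEC and gCap in B16-F10 lungs. None of the 5 ratios was beyond counting error.

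Vegfc (ENSMUSG00000031520, chromosome 8, 54077606 to 54187096, plus strand), the lymphangiogenic ligand, was a venous gene in these libraries. Vein-like ECs had 581 and 557.5 CPM (1747 and 1740 UMIs), gCap-like ECs 83.1 and 82.2 CPM, and aCap-like ECs 1.68 and 2.02 CPM. The highest level was thus 347-fold the lowest in control and 276-fold in B16-F10 lungs, and only the 2 lowest classes, LEC and aCap, overlapped in their intervals. In artery-like ECs it was lower in B16-F10 lungs, with 79 and 37 UMIs, 53.9 CPM (42.7 to 67.2) and 27.2 CPM (19.2 to 37.5), a ratio of -0.99 (-1.59 to -0.40). This difference kept its direction under 9 alternatives, from -1.27 to -0.59. The class itself varied: it held 474 and 343 cells with at least 500 genes per cell and 75 and 42 with doublets kept. Its 8 artery markers also summed to less in the B16-F10 library, at 3786 and 2817 CPM, and their part in the Vegfc ratio was not tested. The ratios in gCap-like and vein-like ECs, -0.02 (-0.09 to 0.06) and -0.06 (-0.16 to 0.04), were within counting error.

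Pgf (ENSMUSG00000004791, chromosome 12, 85166635 to 85177790, minus strand) encodes placental growth factor, a ligand of VEGFR1. Its UMIs lay mainly in LEC-like ECs, where 22 and 50 UMIs gave 45.8 CPM (28.7 to 69.3) and 111.6 CPM (82.8 to 147), a ratio of 1.29 (0.54 to 2.08). When each cell was thinned to 2000 UMIs the ratio was 0.13, with 7 cells holding a UMI in each library. The share of LEC-like ECs with Pgf was 17.0% and 26.2% at 4000 UMIs per cell, 9.21 points more (-7.18 to 26.0), and 25.9% and 48.9% without thinning. In gCap-like ECs it went from 5 to 30 UMIs, 0.157 and 0.881 CPM, a ratio of 2.49 (1.11 to 4.21), below the 50 UMIs set for a measured gene. The other 3 vessel classes held 0 to 3 UMIs per library. For 0 of Pgf in aCap-like ECs of the control, the floor of 3 counts is 0.229 CPM and the upper Poisson limit 0.281 CPM.

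Flt1 (ENSMUSG00000029648, chromosome 5, 147561604 to 147726011, minus strand), the VEGFR1 gene, was found at 790 to 1361 CPM in the blood vessel classes of both libraries and was near background in LEC-like ECs. In gCap-like ECs it had 1192 CPM (1180 to 1204) and 1266 CPM (1254 to 1278), a ratio of 0.09 (0.07 to 0.11). In aCap-like ECs it had 789.8 and 797 CPM, a ratio of 0.01 (-0.03 to 0.05). In artery- and vein-like ECs it was slightly lower, at -0.11 (-0.20 to -0.01) and -0.07 (-0.13 to 0.00), of which the artery-like ratio was 0.09 with doublets kept. With 0.09 as the highest and -0.11 as the lowest ratio in the blood vessel classes, the level of Flt1 was close in both libraries. LEC-like ECs had 15 and 4 UMIs, 31.2 and 8.93 CPM, of which free RNA would supply 9.61 and 6.68 CPM, and the ratio of -1.80 (-3.85 to -0.15) was 0.13 with doublets kept.

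Kdr (ENSMUSG00000062960, chromosome 5, 75932827 to 75978458, minus strand), the VEGFR2 gene, varied more than Flt1 over the blood vessel classes, but not over all 5 classes. Over all 5 classes the highest level of Kdr was 14-fold the lowest in control and 10.8-fold in B16-F10 lungs. The same folds for Flt1 were 43.6 and 145. In control Kdr had 1882 CPM in aCap-like, 823 CPM in LEC-like, 372.5 CPM in gCap-like, 316 CPM in vein-like and 134 CPM in artery-like ECs, and in B16-F10 lungs 1826, 866, 375, 312 and 169 CPM. The order was the same in both libraries and no neighbours overlapped in their intervals. The ratio was 0.01 (-0.03 to 0.05) in gCap-like ECs and -0.04 (-0.07 to -0.02) in aCap-like ECs. The latter was 0.01 without the clusters of few UMIs or genes, which held 466 of 1448 aCap-like cells in control and 68 of 968 in B16-F10 lungs. Artery-like ECs, where Kdr was lowest, had 197 and 230 UMIs and a ratio of 0.33 (0.05 to 0.61), which was -0.13 with doublets kept, when the class held 75 and 42 cells.

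Flt4 (ENSMUSG00000020357, chromosome 11, 49609263 to 49652739, plus strand), the VEGFR3 gene, was highest in LEC-like ECs, at 886 CPM (804 to 974) in control and 1346 CPM (1240 to 1457) in B16-F10 lungs, a ratio of 0.60 (0.42 to 0.79). The intervals of both libraries did not overlap, but the ratio was 0.43 with doublets kept and 0.45 with no maximum of genes, under the limit of 0.5. In vein-like ECs, the class with the lowest level, it had 56 and 92 UMIs, 18.6 and 29.5 CPM, a ratio of 0.66 (0.17 to 1.17). That ratio was 0.46 with no maximum of genes and 1.18 at 2000 UMIs per cell. Flt4 was not confined to lymphatics: gCap-like ECs had 69.7 and 58.6 CPM and aCap-like ECs 50.3 and 46.7 CPM, while free RNA would supply 0.683 and 0.652 CPM in gCap-like ECs. Its gCap-like ratio of -0.25 was opposite in direction to those of veins and lymphatics, and the difference between classes was not tested.

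Nrp1 (ENSMUSG00000025810, chromosome 8, 128358604 to 128503363, plus strand) encodes the co-receptor of VEGFR2. It was lower beyond counting error in gCap-, aCap-, vein- and LEC-like ECs of the B16-F10 library. Among unnamed EC clusters it was lower in those led by Zswim5 (-0.23, -0.29 to -0.17) and Csf2 (-1.38, -1.84 to -0.89, with 11 control cells). It was higher in the one led by Fabp4 (0.24, 0.07 to 0.41, with 34 B16-F10 cells). It was highest in aCap-like ECs, with 2058 CPM (2033 to 2082) in control and 1606 CPM (1582 to 1630) in B16-F10 lungs, a ratio of -0.36 (-0.39 to -0.33). In gCap-like ECs it had 702 CPM (693 to 711) and 566 CPM (558 to 574), in vein-like ECs 596 and 535 CPM, and in artery-like ECs 825.5 and 787 CPM. The ratio in vein-like ECs was -0.15 (-0.25 to -0.06), and that in artery-like ECs, -0.07 (-0.19 to 0.05), was within counting error and was 0.33 with doublets kept. LEC-like ECs had 19 and 7 UMIs, 39.5 and 15.6 CPM, where free RNA would supply 10.1 and 5.28 CPM, and the ratio of -1.34 (-2.83 to -0.03) was 0.34 with doublets kept. The aCap-like ratio was -0.22 and the gCap-like ratio -0.24 without clusters of few UMIs or genes, and the gCap-like ratio stayed between -0.46 and -0.23 under all 13 alternatives. Near-empty barcodes, which hold free RNA, had less Nrp1 in the B16-F10 library, at 599.5 and 409 CPM, a ratio of -0.55 (-0.64 to -0.46). In the same barcodes Kdr stood at -0.78, while its ratio was 0.01 in gCap-like and -0.04 in aCap-like ECs. How ratios in these barcodes relate to those within classes was not tested.

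Nrp2 (ENSMUSG00000025969, chromosome 1, 62703285 to 62818695, plus strand), the co-receptor of VEGFR3 and a semaphorin receptor, was graded from lymphatics through veins to capillaries. LEC-like ECs had 956.5 CPM (871 to 1048) in control and 1620 CPM (1504 to 1742) in B16-F10 lungs, a ratio of 0.76 (0.59 to 0.93). Vein-like ECs had 155 CPM (141 to 169.8) and 262 CPM (244 to 280.4), a ratio of 0.76 (0.59 to 0.92). In both classes the intervals of the 2 libraries stood apart. gCap-like ECs had 131 and 413 UMIs, 4.11 CPM (3.44 to 4.88) and 12.1 CPM (11.0 to 13.4), a ratio of 1.56 (1.27 to 1.86). Artery-like ECs held 2 and 5 UMIs, and aCap-like ECs 16 and 26, where the ratio was 0.97 (0.02 to 1.97). At 2000 UMIs per cell it was -1.43, with 4 control and 1 B16-F10 cells holding a UMI. At 4000 UMIs per cell the shares of aCap-like ECs with Nrp2 were 0.245% and 1.08%, 0.837 points more (0.154 to 1.75), and without thinning 0.898% and 2.27%. The highest level was 784-fold the lowest in control and 678-fold in B16-F10 lungs. The vein-like ratio was 0.42 with no maximum of genes, whereas the LEC-like ratio lay between 0.63 and 0.79 under 9 alternatives. Summed red cell markers in vein-like ECs stood at 523 and 3578 CPM, and their part in the Nrp2 ratio was not tested. An antisense gene, Gm29083, overlaps Nrp2, and how strand was used in counting is not stated, so their reads may not be fully separated.

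Vegfd, the other ligand of VEGFR3, is no member but belongs to the family. It had 13.2 CPM in control and 8.40 CPM in B16-F10 gCap-like ECs, a ratio of -0.65 (-0.87 to -0.43), and -0.46 (-0.75 to -0.18) in aCap-like ECs.

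To ask where within the capillary class these differences lay, the 6 gCap-like clusters were examined, each called by its leading gene. They were unevenly filled. The Hey1-led cluster had 1664 control and 749 B16-F10 cells, and the Sox11-led cluster 759 and 326. The Ntrk2-led cluster had 711 and 654, and the Chrm2-led cluster 475 and 890. The Lalba-led cluster, whose top 10 genes include Lalba, Disp2, Grrp1, Pim3 and Scarb1 of the study's reactive capillary (rCap) list, had 61 control and 968 B16-F10 cells, and the Gm20631-led cluster, with a median of 3776 UMIs, had 648 and 317. Hence the 2 libraries drew their gCap-like cells from these clusters in different proportions.

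Vegfa was highest in the Lalba-led cluster of the B16-F10 library, at 452 CPM (438 to 466), against 366 CPM (314 to 424) in its 61 control cells. In the Gm20631-led cluster it had 383 CPM (361 to 406) and 447 CPM (415 to 481). In the remaining 4 clusters the libraries differed little: 308 and 314 CPM in the Hey1-led, 295 and 310.3 CPM in the Ntrk2-led, 270.3 and 248 CPM in the Chrm2-led, and 212 and 211 CPM in the Sox11-led cluster, with overlapping intervals in each. Nrp2 was also highest in the Lalba-led cluster, at 27.95 CPM (24.6 to 31.6) in B16-F10 lungs and 12.4 CPM (4.55 to 27.0, 6 UMIs) in control, with overlapping intervals. It was higher in B16-F10 lungs with intervals apart in the Chrm2-led (2.85 and 7.61 CPM) and Sox11-led clusters (4.02 and 10.7 CPM), and lower in the Ntrk2-led cluster (7.63 and 4.46 CPM), where the intervals overlapped.

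Nrp1 was lower in B16-F10 lungs in all 6 gCap-like clusters, and the intervals stood apart in each. The difference was largest in the Gm20631-led cluster, 1114 CPM (1076 to 1152) and 744 CPM (702 to 787), and smallest in the Sox11-led cluster, 556 and 507 CPM. Vegfc, which was kept out of the clustering but is among the leading genes of the Sox11-led cluster, ranged from 14.2 CPM in the Hey1-led to 165 CPM in the Sox11-led cluster of the control and from 9.999 to 182 CPM in the same clusters of the B16-F10 library. The Lalba-led cluster had little, 41.4 and 30.5 CPM. Without that cluster the gCap-like ratio of Vegfc was 0.27. Kdr was higher in B16-F10 lungs, with intervals apart, in the Hey1-led (387 and 449.9 CPM) and Chrm2-led clusters (367 and 415 CPM) and lower in the Gm20631-led cluster (391 and 327 CPM).

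**Figure D3:**
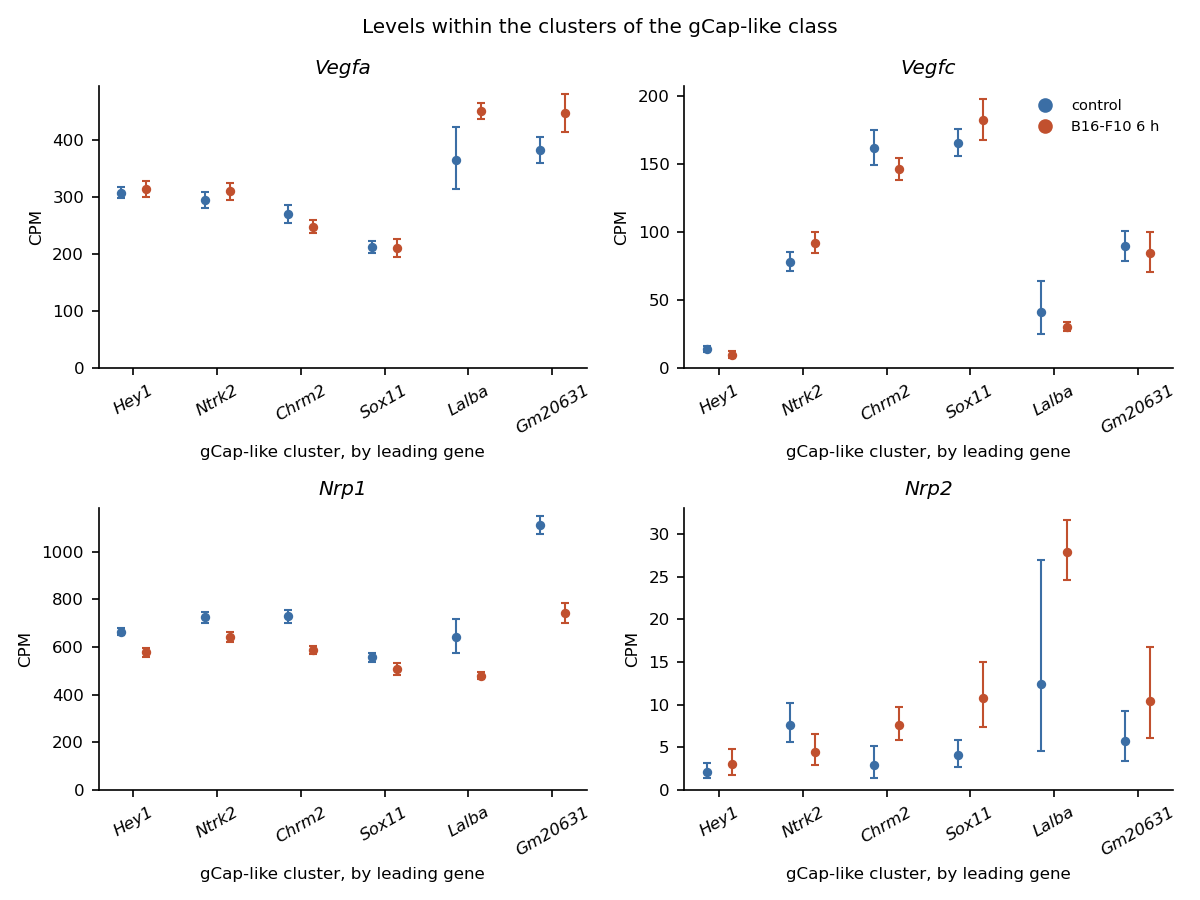
Level (CPM, axes from 0) of Vegfa, Vegfc, Nrp1 and Nrp2 in the 6 gCap-like clusters, named by leading gene, in the control (blue) and the B16-F10 library (orange), with 95% Poisson intervals. In the B16-F10 library Nrp2 peaks in the Lalba-led cluster, at 27.95 CPM. Vegfa is highest in the Lalba-led and Gm20631-led clusters of that library, at 452 and 447 CPM with overlapping intervals. Nrp1 is lower in the B16-F10 library in every cluster.

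The study follows rCap cells and names VEGF among their signals. gCap-like cells were therefore thinned to 2000 UMIs and divided within each library into 4 score bins of equal cell number by their summed UMIs of 44 rCap genes (1064 control and 969 B16-F10 cells per bin). The list is the study's, was chosen partly on these libraries, and holds no member. The bins are ranges and not cell types, and cells with equal scores lie on both sides of each limit. In the B16-F10 library, Vegfa had 298, 296, 347 and 457 CPM from the lowest to the highest bin, and the interval of the highest, 428 to 488, lay above those of the other 3. In control the values were 317, 289.5, 289.9 and 306 CPM, without a trend. The scores were higher in the B16-F10 library, so bins of the same rank are not matched between libraries, with a highest bin from 25 to 63 UMIs in control and from 54 to 124 in B16-F10 lungs.

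Other members also differed between these bins in the B16-F10 library. Nrp2 had 2.58, 7.22, 11.9 and 19.6 CPM, with 5, 14, 23 and 38 UMIs, and 3.29 to 4.23 CPM in the bins of the control. Flt1 went from 1146 CPM (1098 to 1194) in the lowest to 1413 CPM (1361 to 1467) in the highest bin. Kdr went the other way, from 402 CPM (374 to 431) to 313 CPM (288 to 339), and Nrp1 from 642 CPM (607 to 679) to 509 CPM (478 to 542). Vegfc had 75.3, 107.8, 82.6 and 37.7 CPM, so that the highest bin was lowest. Flt4 had 53.2 to 61.4 CPM with overlapping intervals. The cause of these gradients was not tested.

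**Figure D4:**
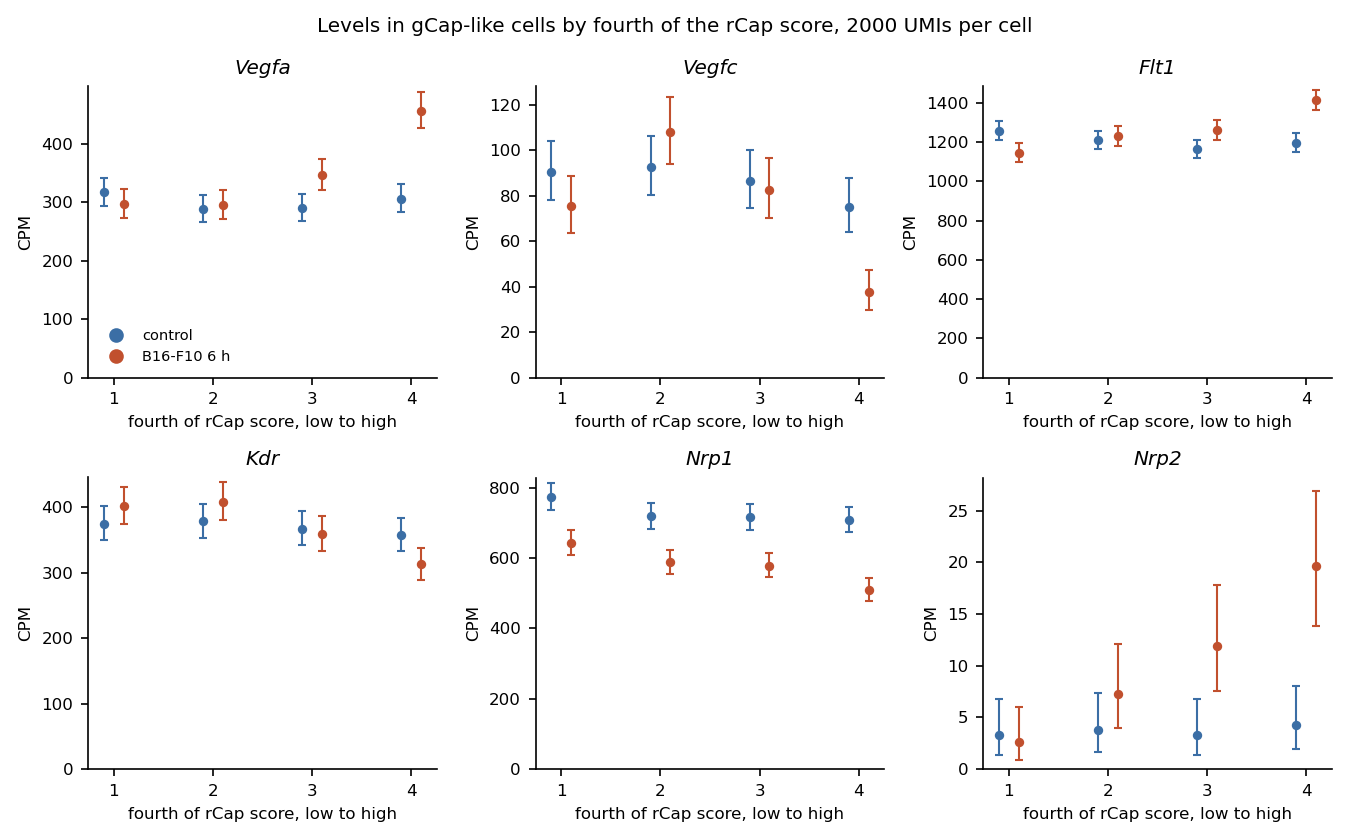
Level (CPM, axes from 0) of 6 genes in gCap-like cells in 4 bins of the rCap score, low to high, in the control (blue) and the B16-F10 library (orange), with 95% Poisson intervals, after thinning to 2000 UMIs per cell. In the B16-F10 library Vegfa, Flt1 and Nrp2 are highest in the top bin, and Kdr, Nrp1 and Vegfc are lowest there.

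A level can change in all cells or in some, so shares of cells with a UMI were compared at 2000 UMIs per cell. In gCap-like ECs, 62 control and 28 B16-F10 cells were too shallow and left out. Vegfa was detected in 41.9% of control and 45.6% of B16-F10 gCap-like ECs, 3.67 percentage points more (1.51 to 5.82), and without thinning in 76.9% and 81.4%. In aCap-like ECs, where it was lowest, the thinned shares were 1.47% and 2.29%. Nrp1 was detected in 71.5% and 63.5% of gCap-like ECs, a difference of -7.96 points (-9.99 to -5.92), and without thinning in 95.5% and 93.7%. In LEC-like ECs, at median depths of 8103 and 9690 UMIs, the thinned shares with Nrp1 were 1.72% and 0 of 47 cells.

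Nrp2 was found in 0.611% of control and 1.78% of B16-F10 gCap-like ECs, a difference of 1.17 points (0.703 to 1.67), and in 2.02% and 6.81% without thinning. In aCap-like ECs, where it is nearly absent, the shares were 0.280% and 0.104%, at unthinned median depths of 9149 and 11366 UMIs (gCap-like ECs: 7220 and 8440). In vein-like ECs the share with Nrp2 was 26.6% and 37.2% (10.6 points, 2.91 to 18.2), and 61.2% and 79.1% without thinning. In LEC-like ECs it was 70.7% and 89.4% (18.7 points, 3.00 to 32.7), and 94.8% and 95.7% without thinning. Flt4 was detected in 82.8% and 93.6% of LEC-like ECs, and the interval of the difference of 10.9 points (-2.33 to 23.3) included 0. The unthinned shares were 98.3% and 97.9%, and vein-like ECs had 1.75% and 3.97% at 2000 UMIs. The share of artery-like ECs with Vegfc was 7.98% and 2.10%, a difference of -5.88 points (-10.8 to -0.918), and 18.7% and 8.97% without thinning, against 0.489% and 0.416% of aCap-like ECs at 2000 UMIs.

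Vegfa and Flt1 were often found in the same gCap-like or artery-like cell and seldom in the same aCap-like cell, where Vegfa was low. Vegfa and Flt1 were both detected in 36.4% of control and 40.4% of B16-F10 gCap-like ECs, and Vegfa and Kdr in 20.9% and 22.7%, at 2000 UMIs. Products of the single shares were 35.8% and 39.97% for the first pair and 20.8% and 22.7% for the second, so pairs were found about as often as the single shares give. In aCap-like ECs the first pair was found in 1.33% and 1.77% and the second in 1.47% and 2.18%. In artery-like ECs the first pair was found in 45.7% and 48.95% and the second in 12.2% and 15.4%. Kdr and Nrp1 were both detected in 93.0% of control and 89.0% of B16-F10 aCap-like ECs, and in 35.6% and 31.9% of gCap-like ECs. Products of their single shares were 93.07% and 88.5%, and 35.46% and 31.68%. Flt4 and Nrp2, the receptor pair of lymphatic vessels, were both detected in 62.1% (48.4 to 74.5) and 82.98% (69.2 to 92.4) of LEC-like ECs. The products for this pair were 58.5% and 83.66%. Vegfc and its receptor Flt4 shared few cells: 0.987% and 0.903% of gCap-like and 1.75% and 2.17% of vein-like ECs. Products of their single shares were as low, at 1.36% and 1.08% in gCap-like and 1.12% and 2.39% in vein-like ECs.

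The pattern of each member over the 5 vessel classes of both libraries (10 values) was compared with 10183 genes by Pearson r of log2(CPM + 1), which is a description without a test, since values of 1 library share its depth and 1 class enters from each library. Nrp2 was most like Fgl2, Nr2f2 and Ifi27l2a (r = 0.98 each), and Nr2f2 encodes the venous and lymphatic transcription factor COUP-TFII. Vegfa was most like Maoa, Ctsc and Sox17 (0.96 each), the last an arterial transcription factor. Among the genes most like Pgf were Prox1, the lymphatic transcription factor, and Rnf19b (0.99 each). Flt4 was most like Dph6 (0.98), Ccl21a and Mrc1 (0.97 each), of which Ccl21a is a lymphatic chemokine. Prox1 and Ccl21a are among the markers that named the LEC-like class, so their likeness to genes high there is not independent of the naming. Kdr was nearest to Enho (0.99), Mgat1 and Atp6v0c (0.97 each), Nrp1 to Ocln, Mfng and Ankrd33b (0.99 each), and Flt1 to Idnk, Id3 and Arl6ip5 (0.99 each). Vegfc was nearest to Nkd2 (0.98), 1700020G17Rik (0.97) and Csrp2 (0.96), and Vegfb to Smad1 (0.99), Il11ra1 and Scarf1 (0.98 each).

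The pathway around the receptors was examined in gCap-like ECs with 6 hand-written lists, to be read beside the 9.91% of all 13006 genes that were higher and the 12.3% that were lower in this class. Of 15 receptor partners and regulators, 13 were measured, 4 were higher by at least 0.5 and 2 lower, with a median of 0.10. Among those higher were Shb, an adaptor of VEGFR2 (30.7 and 59.6 CPM, ratio 0.96), and Ptpn1 and Ptpn2, phosphatases that act on tyrosine kinase receptors (0.77 and 0.65). Efnb2, which promotes receptor internalisation, and Myo6, a motor of endosome traffic, were lower (599 and 345 CPM, -0.80, and 371 and 219 CPM, -0.76). Ptprb, the endothelial phosphatase VE-PTP, had a ratio of -0.48 (3392 and 2427 CPM). Of 12 neuropilin semaphorins and plexins, 9 were measured, 2 were higher and 1 lower, beside the same 9.91% and 12.3%, with a median of -0.10. The semaphorins Sema3b (0.80) and Sema3f (0.55) were higher, the latter a ligand of Nrp2, and the plexin gene Plxna1 was lower (-0.55). Plxnd1 stood at 0.48, Sema3g at -0.44, and Sema3e, with 39 and 35 UMIs, at -0.25 (-0.95 to 0.45).

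Of 36 genes for signalling below the receptors, 35 were measured, 2 were higher and 4 lower, beside 9.91% and 12.3% of all genes, with a median of 0.02. Akt2 (0.59) and Src (0.85, on 29 and 56 UMIs) were higher, and Nras stood at 0.33. The exchange factors Vav2 (9.01 and 5.67 CPM, -0.67) and Vav3 (313 and 203 CPM, -0.62) were lower. The list of genes that VEGF is known to induce moved in both directions: of 23, 20 were measured, 10 were higher and 4 lower, again beside 9.91% and 12.3%, with a median of 0.62. Egr1, an immediate early transcription factor, was highest in ratio (11.6 and 148 CPM, 3.68, 3.53 to 3.83), followed by Trib1 (7.44 and 26.2 CPM, 1.81) and Apln, the apelin gene (3.29 and 10.2 CPM, 1.63). Cxcr4 (21.02 and 3.996 CPM, -2.40), Esm1 (10.3 and 4.29 CPM, -1.27) and Angpt2 (38.6 and 17.7 CPM, -1.12) were lower. Several genes of this list are known from angiogenic tip cells, and they did not move together: beside Apln, Cxcr4, Esm1 and Angpt2, Pdgfb stood at 0.37, Unc5b at 0.11 and Dll4 at -0.16, the last 3 named after their values were seen. Many genes of this list answer to other stimuli too.

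Of 20 hypoxia and HIF genes, 18 were measured, 4 were higher and 3 lower, beside 9.91% and 12.3% of all genes, and the median of -0.05 was near that of all genes. Ndrg1 (1.83), Ddit4 (0.85) and Ldha (0.74) were higher, and Hilpda (-0.86, 717 and 396 CPM), Kdm3a (-0.60) and Ankrd37 (-0.59) were lower. Of 16 EC transcription factors, 12 were measured, 2 were higher and 1 lower, beside 9.91% and 12.3%, with a median of 0.04. Etv6 (189 and 352 CPM, 0.90) and Nr2f2 (18.3 and 27.1 CPM, 0.56) were higher and Sox18 (499.7 and 334 CPM, -0.58) was lower, while Mef2a, Erg and Elf1 stood at 0.23, -0.43 and -0.31. In the other classes the list medians ranged from -0.24, for the hypoxia genes in vein-like ECs, to 0.40, for the VEGF-induced genes in artery-like ECs.

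**Figure D5:**
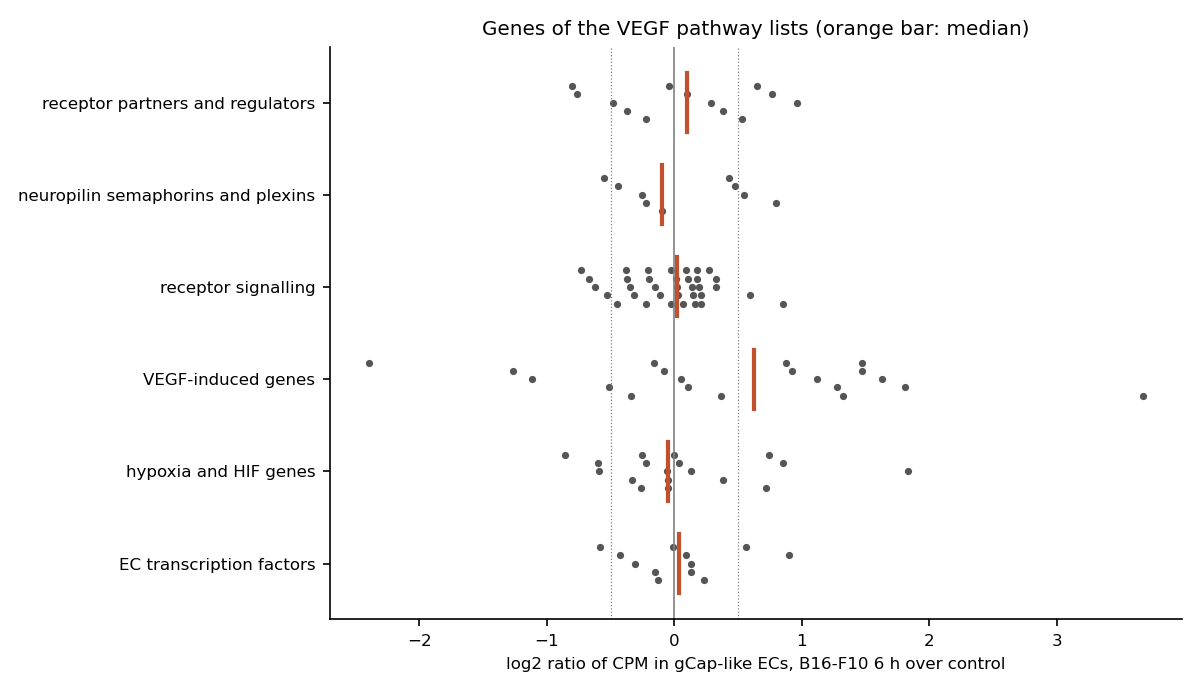
Log2 ratio of CPM in gCap-like ECs, B16-F10 over control, for each measured gene (points) of the 6 pathway lists, with the list median (orange bar), 0 (solid line) and the limit of 0.5 in both directions (dotted lines). The VEGF-induced genes have the highest median, 0.62, and spread from -2.40 to 3.68, while the other 5 medians lie between -0.10 and 0.10.

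Free RNA from lysed cells adds UMIs to droplets that hold ECs. In barcodes with 1 to 100 UMIs, Vegfa had 244 CPM in control and 258 CPM in B16-F10 lungs, and AT2 markers gave a free RNA share of 1.30% and 1.57% in gCap-like ECs. Free RNA would then supply 3.16 and 4.05 CPM of Vegfa in gCap-like ECs, 7.77 and 6.40 CPM of Nrp1 and 0.361 and 0.465 CPM of Nrp2. With it subtracted, the gCap-like ratios were 0.19 for Vegfa and 1.64 for Nrp2.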

How the data were processed

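The 2 libraries were made with a 3′ single-cell kit. The authors deposited raw UMI counts per gene and barcode for all barcodes, without normalization. The file headers give Cell Ranger 7.2.0, and the submitters' processing notes list the same version, Seurat 4.4.0 and the build mm10 (GRCm38). The paper names an older Cell Ranger version and 3 pooled mice per sample in this experiment, against 2 in the labels. The labels name a v2 kit, but 1597090 and 1779952 barcodes are listed, more than that kit holds. Whether intron reads were counted is not given in the sources used here, and counting them would raise long genes such as Flt1 and Nrp1.

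Cells needed 1000 to 5000 detected genes and less than 20% of UMIs from mitochondrial genes, and doublets (564 and 554) were removed with Scrublet in scanpy 1.11.5 at 0.8% per 1000 cells. Of 3000 variable genes, 2911 were used once the members, the pathway lists and the study's rCap and interferon genes were left out. Genes were scaled per library, and 30 principal components and 20 neighbours gave 26 clusters with leidenalg 0.10.2 at resolution 0.8. An EC cluster needed 6 of 8 endothelial markers in at least 50% of its cells, and a class at least 3 and at least 50% of its own markers, each 1.5-fold above other clusters and in at least 10% of cells. EC clusters that also passed for a non-endothelial class were kept out of the vessel classes, and so was a cluster whose top 10 genes held more markers of another class than of its own. Hence 3 EC clusters stayed unnamed (594 and 628, 11 and 343, and 173 and 34 cells), the first despite 7 of 8 gCap markers, since its top genes held an artery marker and no gCap marker.

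UMIs were summed per class and library. Levels carry exact Poisson, ratios exact conditional binomial (Clopper-Pearson) and share differences Newcombe 95% intervals, without a pseudocount, and a sum of 0 was set against a floor of 3 counts. The named genes are the members, the 3 highest and 3 lowest of each pathway list, and the 3 genes most like each member, of which some are not reported here. The members and lists were chosen with earlier results of these data known. Of the gene IDs, 32235 of 32285 were found in GENCODE M21, which gave the coordinates. The code was tested on simulated data.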

Additional observations from a re-analysis of the deposited data

Results flagged for a closer look

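Some members had ratios in opposite directions in different vessel classes, each beyond counting error, and whether the classes differ was not tested. Flt1 stood at 0.09 in gCap-like ECs and at -0.11 in arteries, -0.07 in veins and -1.80 in lymphatics, the last on 15 and 4 UMIs. With doublets kept, the arterial and lymphatic ratios of Flt1 were 0.09 and 0.13, and that of Kdr in arteries was -0.13. Kdr stood at 0.33 in artery-like and -0.04 in aCap-like ECs. The ratios of Flt4 were 0.66 (veins), 0.60 (lymphatics) and -0.25 (gCap-like ECs).

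In barcodes with 1 to 100 UMIs, which no comparison above uses as cells, Vegfb was higher in the B16-F10 library, at 12.7 and 19.2 CPM, a log2 ratio of 0.60 (0.09 to 1.10), and so was Pgf, with 11 and 16 UMIs and a ratio of 1.27 (0.07 to 2.52). In the same barcodes Kdr stood at -0.78 (-0.87 to -0.69) and Nrp1 at -0.55.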

How the results depend on the processing

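Of 117 alternative ratios for the 9 members in gCap-like ECs, 92 stayed within the counting interval, 24 moved outside it and 1 changed sign. Leaving out the Lalba-led cluster, an alternative chosen after seeing the data, moved Vegfa to 0.00, Vegfc to 0.27, Flt1 to 0.03, Kdr to 0.08, Nrp1 to -0.23 and Nrp2 to 0.67. Summing all ECs moved Flt1 to 0.04, Kdr to -0.21, Flt4 to -0.12, Nrp1 to -0.46 and Nrp2 to 0.80. In that sum aCap-like ECs, the class highest in Kdr and Nrp1, were 1448 of 7081 control and 968 of 6346 B16-F10 cells. At least 500 genes per cell moved Vegfc to -0.11 and Flt1 to 0.07, and 2000 UMIs per cell moved them to -0.18 and 0.06. Scaling by the median of all genes moved Flt1 to 0.12, Kdr to 0.05 and Nrp1 to -0.27, and leaving out clusters of few UMIs moved Flt1 to 0.14 and Nrp1 to -0.24. Flt1 was 0.15 with no maximum of genes, 0.06 under 10% mitochondrial UMIs, at resolution 1.6 and with all variable genes, and 0.05 with the Zswim5-led cluster, also added after seeing the data. Of 309 ratios in the other classes, 6 reversed: Kdr to 0.01 without clusters of few UMIs and Nrp2 to -1.43 at 2000 UMIs in aCap-like ECs, and with doublets kept Flt1 to 0.09 and Kdr to -0.13 in artery-like and Flt1 to 0.13 and Nrp1 to 0.34 in LEC-like ECs. A minimum of 10 UMIs gave 2110 genes higher and 2769 lower in gCap-like ECs, against 1289 and 1600, because more genes entered, and moved the median of the VEGF-induced genes to 0.92 and that of the EC transcription factors to 0.09. For all other shifts the cause was not tested. No paired analysis was possible because the 2 groups have a single library each. Depth limited LEC-like ECs, with sums of 480926 and 448115 UMIs (gCap-like ECs: 31871648 and 34036701), to 4 measured members.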

Other observations

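The 77 melanoma-like cells of the B16-F10 library, in 3 clusters with 6 to 8 of 8 melanoma markers, carried Vegfb at 159 CPM (133 to 189, 131 UMIs), against 14.7 CPM in gCap-like ECs of that library. Nrp2 had 48.6 CPM (34.8 to 66.2) there and Vegfa 12.2 CPM (5.83 to 22.4), of which free RNA would supply 0.322 and 2.80 CPM. Flt4 had 0 UMIs, for which the floor of 3 counts is 3.65 CPM and the upper Poisson limit 4.485 CPM. No such cell was kept in the control library, so these levels have no counterpart.

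An EC cluster without a vessel class, led by the cytokine gene Csf2, held 343 B16-F10 and 11 control cells. In the B16-F10 library it had Nrp2 at 111 CPM (100.5 to 123), Vegfa at 108.5 CPM (97.7 to 120.2), Kdr at 177 CPM (163 to 192), Nrp1 at 162 CPM (148 to 176) and Flt1 at 1166 CPM (1130 to 1203). The same genes stood at 12.1, 331, 375, 566 and 1266 CPM in gCap-like ECs of that library. An EC cluster led by Fabp4, with 173 control and 34 B16-F10 cells, had Nrp2 at 239 and 221 CPM, Nrp1 at 1329 and 1572 CPM and Vegfa at 35.7 and 36.1 CPM. An EC cluster led by Zswim5, with 594 and 628 cells and 7 of 8 gCap markers, had Vegfa at 386 and 412 CPM, and Vegfc at 2.78 and 2.45 CPM, 14 UMIs each.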
